A study of Mus musculus with 17 samples.

Results

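Leukocytes leave the blood in steps, and each step uses a different adhesion molecule on the lining cell. P-selectin (gene Selp) and E-selectin (Sele) tether and slow passing leukocytes, ICAM-1 (Icam1), ICAM-2 (Icam2) and VCAM-1 (Vcam1) hold them firmly by binding their integrins, and MAdCAM-1 (Madcam1) is the addressin through which gut-homing lymphocytes enter the intestine. ICAM-2 is kept on resting endothelium, while Icam1, Vcam1, Selp and Sele are raised in mouse endothelium by inflammatory cytokines acting through NF-kB. In the choroid plexus, the vascularised tissue that secretes cerebrospinal fluid, ICAM-1, VCAM-1 and MAdCAM-1 have also been described on the epithelium that surrounds the fenestrated vessels.

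The 6 genes named above were chosen by symbol, and their rows were taken out of a table of 55487 genes. All 6 were found, and 4 of them (Icam1, Icam2, Vcam1, Madcam1) had enough reads to be among the 16851 genes tested; Selp and Sele did not pass the filter on low counts and are described by their reads.

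The libraries were made from whole choroid plexus dissected from the lateral ventricles of C57BL/6 mice. Besides 5 control libraries (CTRL) there were 4 libraries each from mice after 1 day of dextran sodium sulfate (T1), after 3 days of it (T3), and after 3 days of it and then 2 days of water (T5). Dextran sodium sulfate (DSS) injures the lining of the colon and serves as a colitis model, so the plexus was sampled at a distance from the injury; the labels say nothing of sex, age, what the controls drank or whether each library came from its own animal, so p-values measure the spread between these libraries.

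Library totals ran from 8875921 to 26839417 counts. The tissue label matched its markers, though not these alone. The summed level of 12 choroid plexus epithelium markers was 98600 to 223000 CPM (reads relative to library size, with TMM scaling) over the libraries. All 20 endothelium markers had reads in every group. Brain markers were also present, in uneven amounts. Summed over each list, oligodendrocyte markers ran from 97.7 to 16700 CPM, neuron markers from 18 to 767 CPM and astrocyte markers from 176 to 1280 CPM. T1 replicates 2 to 4 and T3 replicate 4 carry sample title numbers of 28 and above, apart from the run of numbers of their groups, and the labels do not say whether this marks a batch. With 3 of 4 T1 libraries among them, the title number and T1 cannot be fully told apart. T1 replicate 3 stood apart for several of the genes described here, so its part is given beside the results that rest on it.

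For 4 of the 6 genes a promoter sequence was found in RefSeq (build GRCm38.p6). They are shown with the site of NF-kB because cytokines are known to induce such genes through it; Icam2 and Vcam1 were not searched, so the 6 genes are not compared by their promoters. The 250 bases before each start site are printed on the gene's plus strand, 5′ to 3′, and capitals mark matches to the frame of an NF-kB site, written as GGNNNTTCC and searched on both strands. Positions are counted from the RefSeq start site, which for Icam1 lies upstream of the GENCODE start given further on.
Icam1, chr9:21015690-21015939: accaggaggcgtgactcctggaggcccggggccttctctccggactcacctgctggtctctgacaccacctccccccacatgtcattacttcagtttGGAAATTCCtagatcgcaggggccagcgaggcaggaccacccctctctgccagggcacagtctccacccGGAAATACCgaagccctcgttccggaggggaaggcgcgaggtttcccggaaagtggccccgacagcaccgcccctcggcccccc
Sele, chr1:164047984-164048233: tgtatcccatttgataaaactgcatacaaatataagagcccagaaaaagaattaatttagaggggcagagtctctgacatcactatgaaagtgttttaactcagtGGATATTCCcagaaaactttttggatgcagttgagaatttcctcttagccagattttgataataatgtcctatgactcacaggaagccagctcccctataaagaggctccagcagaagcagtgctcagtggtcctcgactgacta
Selp, chr1:164115014-164115263: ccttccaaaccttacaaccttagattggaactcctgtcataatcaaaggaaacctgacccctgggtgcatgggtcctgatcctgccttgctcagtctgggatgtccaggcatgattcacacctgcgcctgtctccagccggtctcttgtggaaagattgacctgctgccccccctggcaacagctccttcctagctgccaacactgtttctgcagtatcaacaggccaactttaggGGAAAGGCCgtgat
Madcam1, chr10:79664309-79664558: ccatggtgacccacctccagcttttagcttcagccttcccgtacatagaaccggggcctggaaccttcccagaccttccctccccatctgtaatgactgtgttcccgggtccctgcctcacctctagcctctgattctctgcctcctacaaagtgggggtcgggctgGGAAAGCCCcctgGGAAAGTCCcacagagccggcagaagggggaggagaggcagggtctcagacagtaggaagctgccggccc
In the Icam1 promoter the match GGAAATTCC lies 153 to 145 bases before the start site and matches on both strands, and GGAAATACC, a match on the minus strand, lies at 84 to 76 bases. In the Sele promoter GGATATTCC lies at 145 to 137 bases, an AP-1 motif (TGANTCA) at 73 to 67 bases and a TATA box (TATAAA) at 49 to 44 bases before the start. The Selp promoter holds GGAAAGGCC, a match on the minus strand, at 14 to 6 bases before the start and an AP-1 motif at 139 to 133 bases. The Madcam1 promoter holds GGAAAGCCC and GGAAAGTCC, both matches on the minus strand, at 83 to 75 and 70 to 62 bases. No listed motif overlaps another. Among 32851 promoters of the same length, 15.7% hold GGNNNTTCC, 6.75% hold TGANTCA and 12.4% hold TATAAA. A match is a description of the letters and not a shown binding site.

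The levels of the 6 genes differed widely. Levels were compared as CPM per kilobase of exon, averaged over the 17 libraries. Vcam1 (chromosome 3, 116109949 to 116129688, minus strand, 8870 exon bases) was at 54.0 CPM per kb, above 94.5% of the genes tested. Icam1 (chromosome 9, 21015985 to 21028817, plus strand, 4360 exon bases) was at 2.94 CPM per kb, above 51.0% of the genes tested. Icam2 (chromosome 11, 106377656 to 106388075, minus strand, 1904 exon bases) was at 2.48 CPM per kb, above 47.5% of the genes tested, and Madcam1 (chromosome 10, 79664559 to 79668537, plus strand, 1436 exon bases) was at 1.57 CPM per kb, above 38.7%. Selp (164115264 to 164150026) and Sele (164048234 to 164057677), neighbours on the plus strand of chromosome 1, were near 0 outside 1 library. Antisense genes overlap Vcam1 (Gm43109, 0 to 13 reads a library), Icam1 (Gm47079, 0 to 3 reads) and Selp (Gm16587, 0 to 7 reads, and Gm16548, 9 to 36 reads), and the strand setting of the counting is not stated, so reads of the overlaps cannot be told apart. Coordinates are GRCm38 from GENCODE M21, and all 6 genes are annotated as protein-coding.

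The order of these levels was firm at its top and loose in the middle. Vcam1 was above Icam1 in 17 of 17 libraries, by 7.51 to 36.2 times per length with a median of 21.8. Icam1 was above Icam2 in only 11 of 17 libraries, so these neighbours did not differ beyond their spread. Icam2 was above Madcam1 in 15 of 17, Madcam1 was above Selp in 17 of 17, and Selp was above Sele in 9 with 4 ties.

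**Figure D1:**
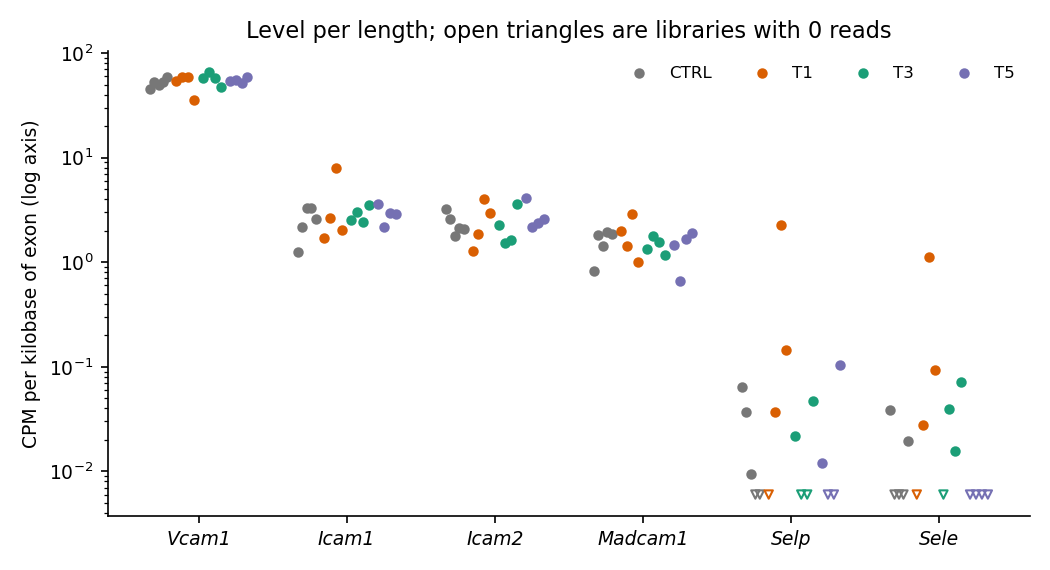
Level of the 6 adhesion genes per length, as TMM-normalised CPM per kilobase of exon on a log axis; each point is 1 of the 17 libraries, by group (CTRL, T1, T3, T5), and open triangles mark libraries with 0 reads. Vcam1 is the highest gene in every library, Icam1, Icam2 and Madcam1 lie close together, and Selp and Sele are near 0 reads except in T1 replicate 3.

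VCAM-1 binds the integrin alpha-4 beta-1 of lymphocytes and monocytes. Vcam1 had 404, 473, 435, 470 and 522 CPM in the CTRL libraries, 478, 524, 529 and 315 CPM in T1, 508, 587, 516 and 424 CPM in T3, and 481, 489, 463 and 528 CPM in T5. All 4 groups overlapped, and the lowest library was T1 replicate 4. The mean was 462 ± 101 CPM in T1, 509 ± 66.6 CPM in T3 and 490 ± 27.5 CPM in T5, against 461 ± 44.5 CPM in CTRL (SD, n = 4 each and 5). The log2 fold change over CTRL was 0.00 ± 0.14 in T1 (approximate SE; adjusted p = 0.994 by edgeR's quasi-likelihood test), with an approximate 95% interval of -0.31 to 0.31, the narrowest of the 4 genes tested. In T3 and T5 it was 0.14 and 0.09 (adjusted p = 0.916 and 0.928 by edgeR).

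ICAM-1 is the ligand of the leukocyte integrins LFA-1 and Mac-1. Icam1 had 5.48, 9.48, 14.3, 14.4 and 11.2 CPM in CTRL, 7.45, 11.6, 34.6 and 8.92 CPM in T1, 11.2, 13.2, 10.5 and 15.2 CPM in T3, and 15.7, 9.37, 13.1 and 12.6 CPM in T5. One library, T1 replicate 3, lay above all the others, and the other 3 T1 libraries were within the CTRL range. The T1 mean was 15.6 ± 12.8 CPM with that library and 9.31 ± 2.09 CPM without it, against 11 ± 3.72 CPM in CTRL. The log2 fold change of T1 over CTRL was 0.52 ± 0.38 (adjusted p = 0.428 by edgeR; approximate 95% interval -0.30 to 1.33), and without T1 replicate 3 it was -0.22. T3 averaged 12.5 ± 2.14 CPM and T5 12.7 ± 2.58 CPM, with log2 fold changes over CTRL of 0.19 and 0.21 (adjusted p = 0.955 and 0.934 by edgeR).

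ICAM-2, the other LFA-1 ligand among the 6, is kept on endothelium and platelets. Icam2 had 6.21, 4.92, 3.41, 4.03 and 3.98 CPM in CTRL, 2.45, 3.58, 7.64 and 5.65 CPM in T1, 4.33, 2.91, 3.10 and 6.80 CPM in T3, and 7.89, 4.09, 4.54 and 4.88 CPM in T5. Each DSS group had libraries on both sides of the CTRL mean. The mean was 4.83 ± 2.29 CPM in T1, 4.29 ± 1.79 CPM in T3 and 5.35 ± 1.72 CPM in T5, against 4.51 ± 1.09 CPM in CTRL. The log2 fold change over CTRL was 0.10 ± 0.34 in T1, -0.07 in T3 and 0.25 in T5 (adjusted p = 0.872, 0.977 and 0.908 by edgeR). The T1 value was -0.21 without T1 replicate 3 and -0.79 with a term for the high title numbers, and neither passed the threshold.

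MAdCAM-1 binds the gut-homing integrin alpha-4 beta-7 and carries sugars that L-selectin binds. Madcam1 had 1.19, 2.62, 2.06, 2.77 and 2.69 CPM in CTRL, 2.86, 2.04, 4.14 and 1.46 CPM in T1, 1.93, 2.56, 2.24 and 1.69 CPM in T3, and 2.08, 0.945, 2.41 and 2.73 CPM in T5. The groups overlapped, and the highest library was again T1 replicate 3. The mean was 2.62 ± 1.17 CPM in T1 (2.12 CPM without replicate 3), 2.10 ± 0.378 CPM in T3 and 2.04 ± 0.779 CPM in T5, against 2.27 ± 0.666 CPM in CTRL. The log2 fold change over CTRL was 0.21 ± 0.36 in T1, -0.11 in T3 and -0.15 in T5 (adjusted p = 0.747, 0.971 and 0.957 by edgeR). Without T1 replicate 3 the T1 value was -0.09. Over the 17 libraries Madcam1 had 693 reads in all, against 148055 for Vcam1, so its fold changes are the less precise.

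**Figure D2:**
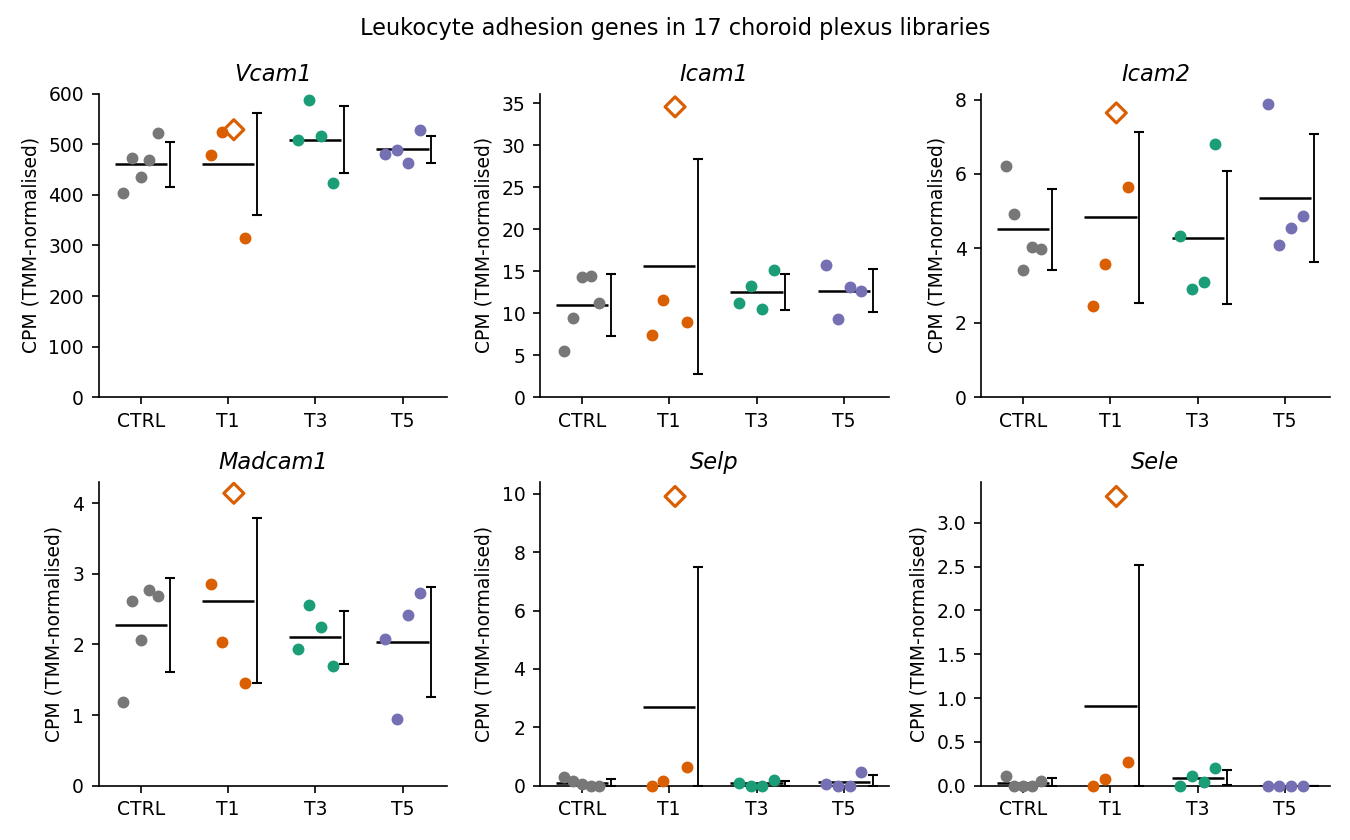
TMM-normalised CPM of each of the 6 genes in CTRL, T1, T3 and T5; points are libraries, bars are group means and error bars are SDs (n = 5 in CTRL, 4 in each other group), and the open diamond is T1 replicate 3. The diamond is the highest point for Icam1 (34.6 CPM), Madcam1 (4.14 CPM), Selp (9.91 CPM) and Sele (3.30 CPM), while the groups overlap for each gene.

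None of the 4 testable genes passed the threshold in T1, T3 or T5 against CTRL, in T3 against T1, in T5 against T3, or over the 4 groups, where the adjusted p was 0.763 for Icam1, 0.833 for Vcam1, 0.873 for Madcam1 and 0.891 for Icam2 (edgeR). The background was 0% in each of these comparisons, since edgeR called 0 of all 16851 genes tested, so the members' 0 says nothing particular about them. That background moved with the libraries: for T1 against CTRL edgeR called 2203 genes without T1 replicate 1, the only T1 library of low title number. It called 717 without T3 replicate 4 and 843 with the epithelium markers as a covariate. None of the genes called in these settings was among the 4. At an unadjusted p under 0.05 the share of all genes was 21.1% for T1 against CTRL, 4.97% for T3 against CTRL and 7.83% for T5 against CTRL, and none of the 4 genes was among them. With a term for the high title numbers, the count of such genes went from 3553 to 647 for T1, 838 to 862 for T3 and 1320 to 1913 for T5. With the endothelium markers as a covariate it was 1039, 991 and 1653. Groups that did not overlap were found for 6.76%, 1.7% and 2.56% of all genes in T1, T3 and T5 against CTRL, and for none of the 4. Other tools called genes at T1 (826 by DESeq2 and 4084 by limma voom with quality weights), and none of the 4 genes was called by either; the selectins were not tested there. Between the DSS groups the log2 fold changes of T3 over T1 were -0.33 for Icam1, -0.17 for Icam2, 0.14 for Vcam1 and -0.32 for Madcam1. Those of T5 over T3 were 0.02 for Icam1, 0.32 for Icam2, -0.05 for Vcam1 and -0.04 for Madcam1. T1, T3 and T5 share the CTRL libraries, and T3 and T1 each enter more than 1 comparison, so the values are not independent. In bulk tissue, fewer cells of a type and less RNA per cell cannot be told apart.

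The selectins were almost silent. Selp, whose protein waits in endothelial Weibel-Palade bodies and platelet granules, had 5, 4, 1, 0 and 0 reads in CTRL, 0, 4, 153 and 7 in T1, 1, 0, 0 and 5 in T3, and 1, 0, 0 and 8 in T5. Sele, whose protein appears on endothelium after cytokine stimulation, had 2, 0, 0, 0 and 1 reads in CTRL, 0, 2, 51 and 3 in T1, 0, 3, 1 and 5 in T3, and 0 in all 4 T5 libraries. T1 replicate 3 alone held 153 of the 189 Selp reads and 51 of the 68 Sele reads. There Selp was at 9.91 CPM and Sele at 3.30 CPM, against at most 0.637 and 0.273 CPM in the other 16 libraries. A count of 0 allows up to 0.116 to 0.306 CPM over the libraries (3 counts), so lower levels were not detectable at this depth. Fitted with no filter on low counts, T1 over CTRL gave a log2 fold change of 4.65 for Selp (unadjusted p = 0.00973, adjusted p = 0.214 by edgeR) and 4.58 for Sele (unadjusted p = 0.00135, adjusted p = 0.173 by edgeR). These fits rest on T1 replicate 3: without it the T1 mean was 0.267 ± 0.331 CPM for Selp and 0.118 ± 0.14 CPM for Sele (SD, n = 3).

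T1 replicate 3 was also high for some other genes of leukocyte recruitment, and not for others. It was the highest of the 17 libraries for both selectins and for 2 of the 4 tested adhesion genes (Icam1 and Madcam1), against 9.82% of all genes tested (1655 of 16851). The same held for 8 of 14 NF-kB regulators, 5 of 10 inducing cytokines and receptors, 4 of 11 leukocyte receptors, 2 of 8 linkers and sheddases, 2 of 11 other adhesion and transmigration genes, 1 of 8 genes of Weibel-Palade bodies and 0 of 9 genes of selectin ligand synthesis. Among marker lists it held for 10 of 20 endothelium, 3 of 5 neutrophil, 4 of 8 monocyte and dendritic cell, 4 of 12 border macrophage, 0 of 4 lymphocyte and 0 of 4 platelet markers. These counts cover the markers that passed the filter, 5 of 12 listed for neutrophils. The genes in the next sentences were picked after their values in this library had been seen. Among the NF-kB subunits and targets, Nfkb2 was at 17.3 CPM there, against at most 7.14 CPM in the other 16 libraries, and Relb was at 21.1 CPM against at most 13.2 CPM. Tnfrsf1b, a TNF receptor, was at 13.5 CPM against at most 8.56 CPM, and Il4ra, a subunit of the interleukin-4 receptor, was at 14.4 CPM against at most 7.38 CPM. S100a8 and S100a9, the abundant alarmins of neutrophils, were at 15.1 and 21.8 CPM, against at most 7.85 and 9.31 CPM elsewhere. Camp, Ngp, Ltf, Elane and Mpo, of the same list, were highest in CTRL replicate 5, at 2.24, 4.49, 1.51, 0.785 and 1.18 CPM. In T1 replicate 3 they were at 0.194, 2.2, 1.3, 0.0648 and 0.194 CPM. All other listed neutrophil markers were highest in T1 replicate 3. The summed neutrophil markers reached 54.9 CPM there, and 31.2 CPM in CTRL replicate 5, where Selp had 0 reads and Sele 1. The summed platelet markers were at 25.3 CPM in T1 replicate 3, within the 15.7 to 36.1 CPM of the other libraries. The part of other cell types in the high adhesion genes of this library was not tested.

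The label of the 4 tested adhesion genes as vessel molecules was checked against cell type markers across the 17 libraries. Each gene's log2 CPM was set against the mean log2 CPM of 20 endothelium markers and, as an alternative added after seeing the data, of 12 choroid plexus epithelium markers, giving 8 relations with permutation p-values adjusted over them. Icam2 rose with the endothelium markers (Pearson r = 0.621, permutation p = 0.00893, adjusted p = 0.0238; Spearman rho = 0.62, permutation p = 0.00955, adjusted p = 0.0382). Without the 2 libraries farthest from the median it was r = 0.504, and within the 13 libraries of lower title number r = 0.532. Vcam1 ran the other way (r = -0.47, permutation p = 0.0521, adjusted p = 0.0834; rho = -0.277, permutation p = 0.281), and so did Madcam1 (r = -0.17, permutation p = 0.519; rho = -0.228, permutation p = 0.379), neither past the threshold. Icam1 had r = 0.219 (permutation p = 0.407; rho = 0.091, permutation p = 0.733), with -0.083 without the 2 farthest and -0.334 within the 13 libraries.

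The epithelium markers gave the opposite order. Vcam1 had r = 0.713 with them (permutation p = 0.00146, adjusted p = 0.0117; rho = 0.495, permutation p = 0.0461, adjusted p = 0.0923), with 0.37 without the 2 farthest libraries and 0.571 within the 13 libraries, so that the relation rests in part on the 2 libraries. Madcam1 had r = 0.642 (permutation p = 0.00528, adjusted p = 0.0211; rho = 0.542, permutation p = 0.0273, adjusted p = 0.0728), with 0.451 and 0.779 under the same splits. Icam2 had r = -0.588 (permutation p = 0.0129, adjusted p = 0.0259; rho = -0.645, permutation p = 0.00637, adjusted p = 0.0382), with -0.569 and -0.522. Icam1 had r = 0.22 (permutation p = 0.39; rho = 0.061, permutation p = 0.815), with -0.318 and 0.498, so its sign turned with the libraries used. In these libraries Icam2 thus rose with the endothelium markers, and Vcam1 and Madcam1 rose with the epithelium markers by Pearson's r. The other marker lists were not set against the genes, so these relations do not single out endothelium or epithelium. Selp and Sele were not set against any markers. The 6 genes are called leukocyte adhesion genes here, a name that leaves the cell open. All values of a library share its depth and its scaling, and more of one tissue lowers the share of another. No library held 1 cell type alone, so the cell that made each transcript was not measured.

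**Figure D3:**
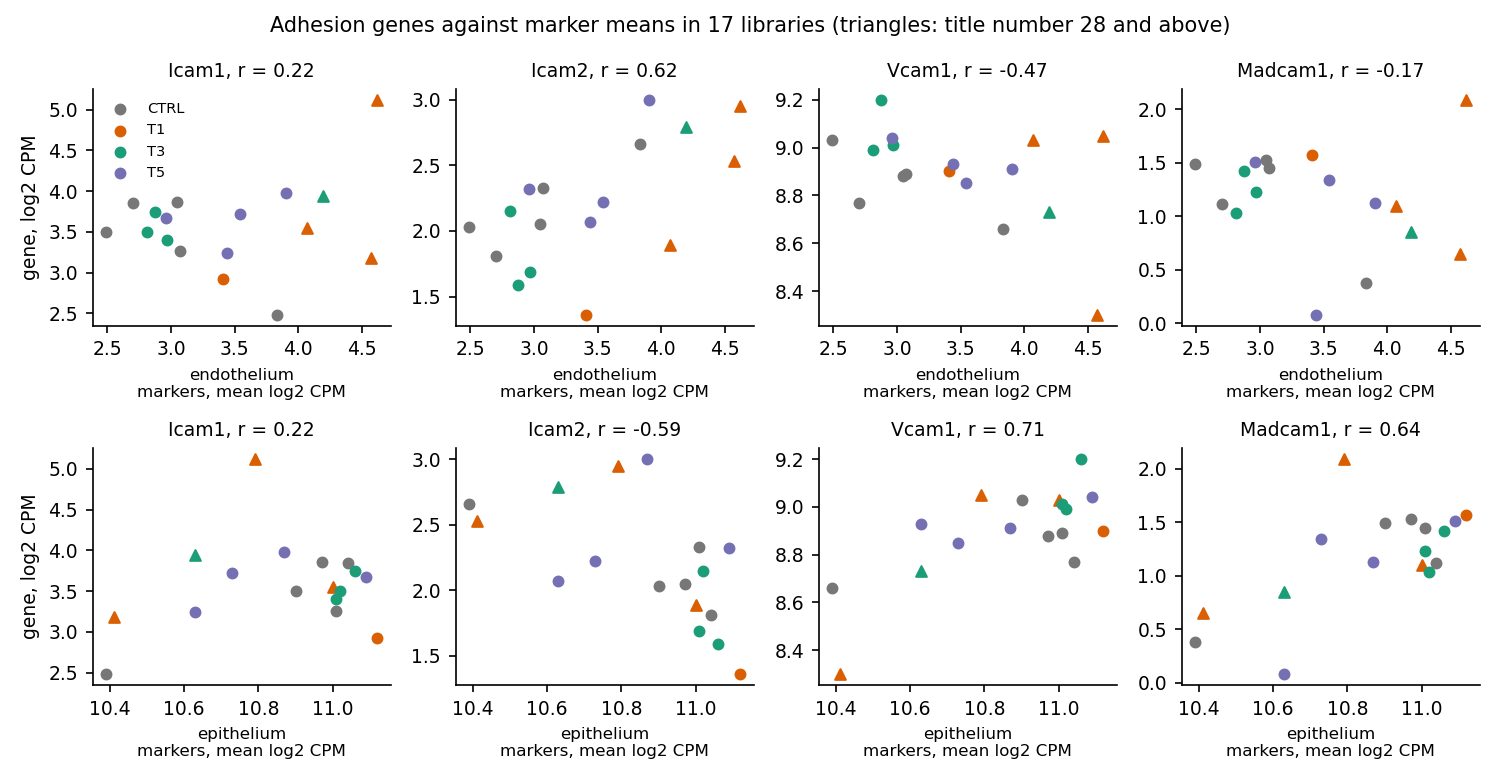
Log2 CPM of Icam1, Icam2, Vcam1 and Madcam1 against the mean log2 CPM of the endothelium markers and of the choroid plexus epithelium markers; each point is 1 of 17 libraries, coloured by group, and triangles are libraries of title number 28 and above. Icam2 slopes up with endothelium (r = 0.621) and down with epithelium (r = -0.588), while Vcam1 (r = 0.713) and Madcam1 (r = 0.642) slope up with epithelium.

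The endothelium markers and the adhesion genes differed in their T1 values. For T1 against CTRL the log2 fold change was positive for all 20 endothelium markers (57.7% of all genes tested) and their median was 1.13, beside 0.08 over all genes. Beside 21.1% of all genes tested, 14 of the 20 markers had an unadjusted p under 0.05 by edgeR, and 0 of 20 passed the threshold. Their summed level was 322 to 733 CPM in T1, against 168 to 381 CPM in CTRL, and the T1 replicate of low title number had the 322 CPM. The fold changes of Icam2, Vcam1 and Madcam1 lay below those of all 20 markers, and that of Icam1 below those of 17. In T3 the median of the markers was 0.19, and in T5 it was 0.35. The medians of the neuron, astrocyte and oligodendrocyte markers in T1 were 1.96, 0.55 and 0.32, with 0 past the threshold. The part of brain tissue in the endothelium values was not tested.

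**Figure D4:**
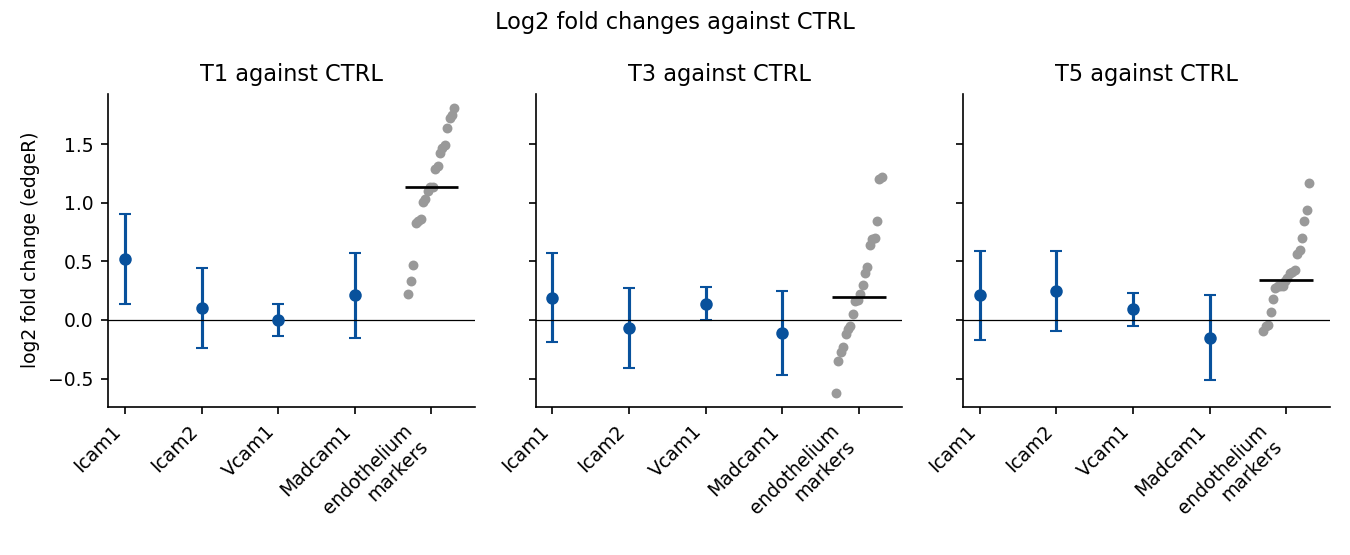
Log2 fold changes over CTRL of Icam1, Icam2, Vcam1 and Madcam1 in T1, T3 and T5, with approximate SEs, beside the 20 endothelium markers in grey and their median as a line. In T1 the markers lie around a median of 1.13, above the values of Icam2 (0.10), Vcam1 (0.00) and Madcam1 (0.21).

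Each gene was then set against the endothelium markers of the same library. Icam2's log2 CPM minus the mean log2 CPM of the endothelium markers was -2.06, -2.18, -1.66 and -2.04 in the T1 libraries, against -1.17, -0.74, -0.89, -1.0 and -0.46 in CTRL. All 4 T1 libraries lay below all 5 CTRL libraries, including the T1 replicate of low title number. The mean was -1.98 ± 0.23 in T1 and -0.85 ± 0.27 in CTRL, a difference of -1.13 (2-sided exact permutation p = 0.0159, the smallest this design allows; adjusted p = 0.19 over the 12 tests of this kind), which fails the correction. By the same measure 7.79% of all genes tested lay wholly below CTRL in T1. Icam2 itself had a log2 fold change of 0.10 in T1, beside a median of 1.13 for the markers. Its relative level was thus low through the higher markers and not through fewer Icam2 reads. Vcam1 differed by -1.16 (exact permutation p = 0.0476, adjusted p = 0.286), Madcam1 by -0.98 (exact permutation p = 0.175) and Icam1 by -0.84 (exact permutation p = 0.238), and the T1 and CTRL libraries overlapped for these 3 genes. For T3 and T5 against CTRL the adjusted p was at least 0.524 for each gene (exact permutation tests).

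**Figure D5:**
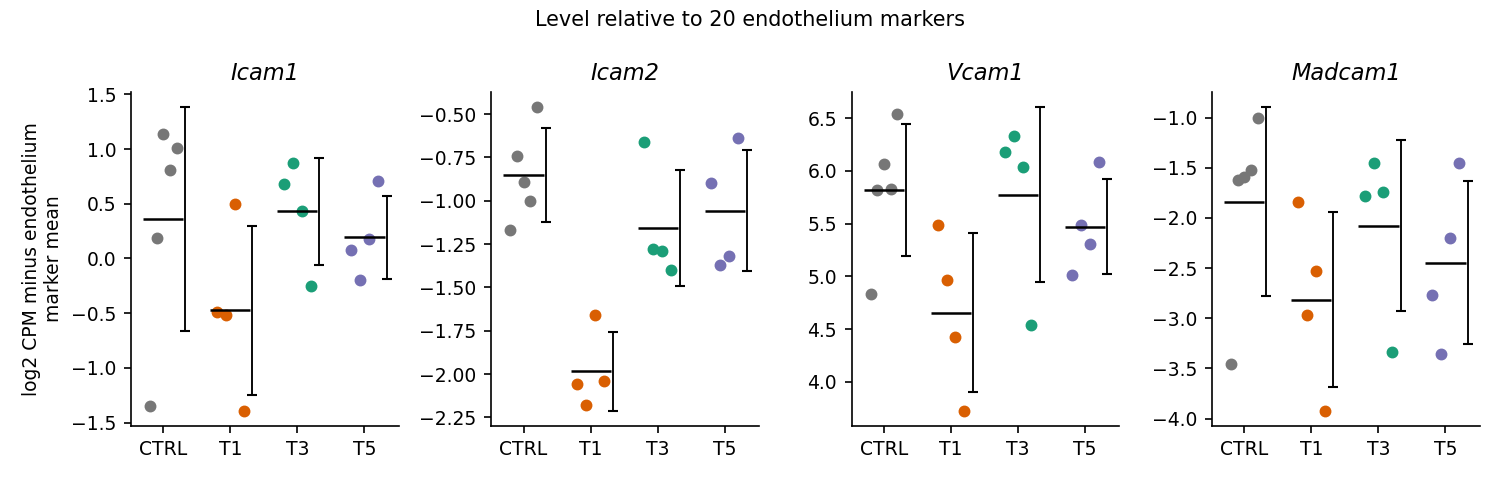
Log2 level of Icam1, Icam2, Vcam1 and Madcam1 relative to the mean of the 20 endothelium markers in the same library, in CTRL, T1, T3 and T5; points are libraries, with group means and SDs (n = 5 in CTRL, 4 in each other group). For Icam2 the T1 points (-2.18 to -1.66) lie below the CTRL points (-1.17 to -0.46).

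The adhesion genes did not form a single pattern among themselves. Over the 17 libraries the Pearson r of log2 CPM was 0.59 between Icam1 and Madcam1, 0.51 between Vcam1 and Madcam1, 0.36 between Icam1 and Icam2 and 0.36 between Icam1 and Vcam1. It was -0.35 between Icam2 and Vcam1 and -0.11 between Icam2 and Madcam1. Spearman's rho was, in the same order, 0.34, 0.46, 0.26, 0.25, -0.29 and -0.21, and no pair was tested. Within the 13 libraries of lower title number Pearson r was, in that order, 0.45, 0.4, 0.05, 0.41, -0.38 and -0.32. The value for Icam1 and Icam2 in particular thus leaned on the other 4 libraries. Among the 14229 genes ranked by this measure, those most like Icam1 were Cdh3, which encodes P-cadherin (r = 0.847), Tap2, a subunit of the peptide transporter of antigen presentation (0.826), the NF-kB subunit gene Relb (0.821), the integrin gene Itga5 (0.809) and Rhbdf2 (0.804). All 5 peak in T1 replicate 3, as Icam1 does; within the 13 libraries of lower title number, which leave it out, r was 0.835, 0.768, 0.732, 0.628 and 0.823 in the same order. Most like Icam2 were Dgka, a diacylglycerol kinase (0.833), Rin3 (0.803), Sigirr (0.785), Pcdha9 (0.784) and Tcte2 (0.78). Most like Vcam1 were the integrin gene Itgb8 (0.868), Tbcel (0.864), St13 (0.839), Metap1 (0.838) and Pip4p2 (0.831). Most like Madcam1 were Tmem184a (0.825), the sialyltransferase genes St6galnac2 (0.824) and St6galnac4 (0.806), Alg3 (0.798) and G6pc3 (0.798). These are the ends of a ranking over libraries that share depth and tissue makeup, given as a description.

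The leukocyte receptors of these molecules had no member past the threshold. Of the 11 receptor genes tested, 0 passed the threshold for T1 against CTRL and 10 had a positive log2 fold change, a sign that 57.7% of all genes tested had. The list's median was 0.59 in T1, 0.24 in T3 and 0.28 in T5, beside 0.08, 0.02 and 0.02 over all genes. Glg1, a Golgi protein known as an E-selectin ligand, averaged 170 ± 33.6 CPM in T1, against 126 ± 27.3 CPM in CTRL. Itga9, an integrin subunit whose dimer binds VCAM-1, averaged 20.9 ± 6.23 CPM in T1, against 13.9 ± 3.0 CPM in CTRL. Itgam, the alpha subunit of Mac-1, averaged 1.27 ± 1.05 CPM in T1, against 0.492 ± 0.309 CPM in CTRL (log2 fold change 1.37 ± 0.64, adjusted p = 0.230 by edgeR). Its T1 libraries were at 0.51, 0.611, 2.78 and 1.18 CPM, the highest being replicate 3. The T5 libraries were at 0.799, 1.42, 2.13 and 1.1 CPM, each above the CTRL maximum of 0.785 CPM. Groups that did not overlap were found for 2.56% of all genes in T5 against CTRL.

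Genes that make the sugars selectins bind had a median log2 fold change of 0.24 in T1, 0.08 in T3 and 0.11 in T5, with 0 of 9 called and 5 of 9 positive in T1. B3gnt3, which extends the core 1 sugars read by L-selectin, averaged 3.12 ± 1.89 CPM in T1, against 1.0 ± 0.436 CPM in CTRL (log2 fold change 1.64 ± 0.46, adjusted p = 0.135 by edgeR), with T1 replicate 1 at 1.33 CPM, within the CTRL range of 0.565 to 1.52 CPM. The galactosyltransferase gene B4galt1 averaged 70.8 ± 13.5 CPM in T1, against 60.1 ± 12.6 CPM in CTRL. The sulfotransferase gene Chst2 averaged 17.9 ± 11.6 CPM in T1, beside a CTRL mean of 10.1 ± 6.44 CPM. Its T5 libraries were at 8.85, 34.7, 37 and 6.11 CPM. Of all libraries, T5 replicate 2 had the highest summed neuron markers (767 CPM) and T5 replicate 3 the highest oligodendrocyte markers (16700 CPM). T1 replicate 4, at 34.5 CPM of Chst2, had the next highest oligodendrocyte markers (9300 CPM). The part of brain tissue in the Chst2 values was not tested.

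Among other adhesion and transmigration genes of the vessel, 0 of 11 tested passed and 10 were positive in T1, with medians of 0.46, 0.06 and 0.44 in T1, T3 and T5. Podxl, a sialomucin of the endothelial surface, averaged 38.0 ± 22.2 CPM in T1, against 12.9 ± 4.79 CPM in CTRL (log2 fold change 1.56 ± 0.47, adjusted p = 0.138 by edgeR). T1 replicate 1, of low title number, was at 13.6 CPM, within the CTRL range of 8.3 to 20.5 CPM, and the other 3 T1 libraries were at 31.5, 66.8 and 40.1 CPM. Cd34, the related sialomucin, averaged 24.5 ± 6.45 CPM in T1, against 12.5 ± 5.27 CPM in CTRL. Aoc3, which encodes the amine oxidase VAP-1, averaged 2.48 ± 0.725 CPM in T1 and 0.801 ± 0.589 CPM in CTRL. Of the 8 genes of Weibel-Palade bodies, the stores that hold P-selectin, 0 passed and 7 were positive in T1, with medians of 0.67, 0.37 and 0.45. Vwf, whose protein forms these bodies, averaged 17.2 ± 10.3 CPM in T1 against 3.56 ± 2.43 CPM in CTRL (log2 fold change 2.28 ± 0.76, adjusted p = 0.147 by edgeR). Its highest library was T3 replicate 4, at 35.5 CPM, where Selp had 5 reads. The other 2 genes chosen by the same rule were Rab27a and Edn1 (endothelin-1). Rab27a averaged 2.14 ± 0.370 CPM in T1, beside a CTRL mean of 1.95 ± 0.459 CPM. Edn1 averaged 1.61 ± 0.599 CPM in T1, beside a CTRL mean of 0.663 ± 0.461 CPM. Its highest libraries lay outside T1: T3 replicate 4 (13.6 CPM), T5 replicate 1 (7.51 CPM) and T3 replicate 3 (2.56 CPM). T1 reached at most 2.14 CPM, and the remaining T3 and T5 libraries were at 0.174 to 0.698 CPM.

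The linkers that tie ICAM-1 and VCAM-1 to actin, together with the proteases that shed them, had medians of 0.29, 0.16 and 0.05 in T1, T3 and T5, with 0 of 8 called and 7 of 8 positive in T1. Vcl (vinculin) averaged 24.2 ± 9.69 CPM in T1 and 11.7 ± 3.06 CPM in CTRL; T1 replicate 1 was at 9.8 CPM, the other 3 T1 libraries at 30.6, 28.2 and 28.4 CPM, and T3 replicate 4 at 44.9 CPM. The sheddase genes Adam10 and Adam17 averaged 67.7 ± 11.4 and 64.5 ± 10.5 CPM in T1, against 54.9 ± 10 and 49.3 ± 13.2 CPM in CTRL. Their log2 fold changes, 0.30 ± 0.14 and 0.39 ± 0.16, did not pass (adjusted p = 0.221 and 0.189 by edgeR).

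The NF-kB regulators had a median of 0.23 in T1, 0.07 in T3 and 0.00 in T5, with 0 of 14 called and 13 positive in T1. Ikbkb, the kinase that releases NF-kB, averaged 48.2 ± 10.7 CPM in T1, against 32.9 ± 1.87 CPM in CTRL (log2 fold change 0.55 ± 0.14, adjusted p = 0.130 by edgeR). T1 replicate 1 was at 32.3 CPM, within the CTRL range of 31.2 to 35.7 CPM, while the libraries of high title number were at 52, 52.7 and 55.6 CPM in T1 and 52.1 CPM in T3. Nfkb1 averaged 15.7 ± 1.76 CPM in T1, against 11.8 ± 2.79 CPM in CTRL, and Birc3 averaged 9.90 ± 2.18 CPM in T1 and 6.22 ± 1.64 CPM in CTRL. Of the cytokines that induce these adhesion molecules and their receptors, 10 of 15 could be tested, 0 passed and 8 were positive in T1, with medians of 0.38, 0.00 and 0.20. Tnfrsf1b averaged 7.80 ± 4.46 CPM in T1, against 2.6 ± 0.964 CPM in CTRL (log2 fold change 1.59 ± 0.45, adjusted p = 0.138 by edgeR). T1 replicate 1 was at 2.96 CPM, within the CTRL range of 1.09 to 3.76 CPM, while the libraries of high title number were at 6.15, 13.5 and 8.56 CPM in T1 and 6.84 CPM in T3. The interferon gamma receptor genes Ifngr1 and Ifngr2 averaged 41.6 ± 4.03 and 24.3 ± 4.62 CPM in T1, against 31.9 ± 2.14 and 23.9 ± 3.72 CPM in CTRL. In T5, Ifngr2 was at 26.8, 35.4, 31.1 and 25.8 CPM. Tnf, a classical inducer of E-selectin, did not pass the filter on low counts and reached at most 0.0648 CPM in T1, against at most 0.226 CPM in CTRL. Its highest library was T5 replicate 4, at 0.407 CPM. Among the other cytokine genes of this list, Il1a and Il1b peaked in T1 replicate 3. Il1a stood at 1.04 CPM there, with a maximum of 0.452 CPM elsewhere, and Il1b at 2.4 CPM, with a maximum of 1.9 CPM elsewhere. Ltb, Il4, Lta, Il13 and Ifng peaked in other libraries. Beside these lists, the summed border macrophage markers were at 95.3 to 218 CPM in T1, against 56 to 97.7 CPM in CTRL, and the endothelium markers differed as given above; the part of tissue makeup in the list medians was not tested, and T1 and the high title numbers cannot be fully told apart in them.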

How the data were processed

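RNA of 17 choroid plexus samples was sequenced from SMART-Seq v4 libraries, per the labels' protocols. The authors deposited 1 table of raw counts per gene. Tools named in the submitters' processing notes are STAR 2.6.1b, Trimmomatic 0.39 and featureCounts 1.6.4, with GRCm38 as the build. The sources used here give neither annotation release nor strand setting, so reads of overlapping antisense genes cannot be told apart, and PCR copies count as reads. Symbols came from GENCODE M21, where 55394 of 55487 identifiers were found.

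Groups were read from the time point labels; replicate numbers only name samples. The chi-square between replicates was 7.52 to 107 per gene, so each library was counted once. edgeR 4.0.16 (R 4.3.3) was used with TMM scaling, filterByExpr by group, 1 mean per group over 17 libraries, robust quasi-likelihood F tests and Benjamini-Hochberg adjustment at 0.05. The SE is the absolute log2 fold change over the square root of F. Log2 CPM used a prior count of 2. DESeq2 1.42.0 and limma 3.58.1 were alternatives. Correlations used 100000 permutations. Depth was 8875921 to 26839417 counts, and floors and intervals cover counting error or library spread only. The fits were also run on simulated counts with even tissue makeup and a dispersion of 0.05. The common dispersion of the data was 0.141, so that run does not carry over to these libraries. Besides the adhesion genes, up to 3 genes per list were named, those with the smallest p over the 4 groups, and the 5 genes of highest Pearson r with each gene tested. The cytokine genes and the genes picked for their values in T1 replicate 3 were named outside this rule. The members and lists were chosen with earlier results of these data known.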

Additional observations from a re-analysis of the deposited data

Results flagged for a closer look

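Icam1 in T1 replicate 3, at 34.6 CPM, lay farther from the rest of its group than Dixon's 95% limit allows, and so did Selp (9.91 CPM) and Sele (3.30 CPM) in the same library. Selp in T5 replicate 4, at 0.465 CPM, was flagged the same way and rests on 8 reads. These are 4 of the 23 sets of a gene and a group tested in this way. Chance flags about 1 in 20 only for normally distributed values and independent sets. Here Selp and Sele had libraries with 0 reads and most flags came from T1 replicate 3, so that rate does not apply.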

How the results depend on the processing

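None of Icam1, Icam2, Vcam1 and Madcam1 was called in any of the 29 alternatives to the edgeR fit (28 for the test over the 4 groups), in any comparison; Selp and Sele were fitted only with no filter and were not called there. The alternatives with the epithelium markers were chosen after seeing the data. Of 928 single values recomputed, 864 kept their direction and side of the threshold and 63 changed sign, all of them uncalled in the main fit. Their cause was not tested. For T1 against CTRL, Vcam1 was -0.02 with no filter; Icam1 was -0.18 with a term for the high title numbers and -0.58 without those 4 libraries; Icam2 was -0.79 and -0.90 there, -0.10 with the brain markers and -0.89 with the endothelium markers as a covariate. For T3 against CTRL, Icam1 was -0.02 with the title term. For T5 against CTRL, Madcam1 was 0.01 and Icam2 -0.09 with the endothelium covariate. For T3 against T1, Icam1 was 0.16 with the title term and 0.66 without the 4 libraries, Icam2 was 0.37, 0.50, 0.01 (brain) and 0.62 (endothelium), and Vcam1 was -0.07 with the endothelium covariate. For T5 against T3, Vcam1 was 0.03, 0.00 and 0.01 with the brain, endothelium and epithelium covariates, Madcam1 was 0.10, 0.04 and 0.07, and Icam1 was -0.07 with library totals, -0.01 with only 2 groups fitted and -0.05 with the endothelium covariate. Relative to the median endothelium marker, Icam1 in T3 was -0.01.

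Leaving out each library in turn gave ranges for T1 against CTRL of -0.22 to 0.74 (Icam1), -0.21 to 0.31 (Icam2), -0.07 to 0.15 (Vcam1) and -0.09 to 0.41 (Madcam1). For T3 against CTRL, Icam2 ran from -0.40 to 0.07, and for T5 against CTRL, Madcam1 from -0.32 to 0.07 and Icam2 from 0.00 to 0.39. For T3 against T1 the ranges were -0.55 to 0.40 (Icam1), -0.51 to 0.11 (Icam2) and -0.02 to 0.21 (Vcam1), and for T5 against T3 -0.10 to 0.14 (Icam1), -0.14 to 0.02 (Vcam1) and -0.21 to 0.19 (Madcam1). Relative to the endothelium markers, Icam1 ran from -0.36 to 0.30 in T3 and -0.60 to 0.03 in T5, Vcam1 from -0.29 to 0.37 and Madcam1 from -0.65 to 0.18 in T3; the T1 value of Icam2 stayed between -1.24 and -1.04. With deviations from the group means, 2 genes in place of 1 were correlated with the endothelium markers past the threshold. The added one was Vcam1 (r = -0.551, adjusted permutation p = 0.0407). Here p was adjusted over the 4 endothelium relations alone, and not over the 8 relations used further above. No paired analysis was possible because replicate numbers only name the libraries of a group. Depth limits Selp and Sele, and the 4 or 5 libraries per group limit the rest.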
